A study of Mus musculus with 60 samples.

Results

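The 10 Kruppel-like factor genes studied for their effect on axon growth, Klf2, Klf4, Klf5, Klf6, Klf7, Klf9, Klf10, Klf13, Klf15 and Klf16, were examined in 16 deposited peak lists, 10 of the 21887 protein-coding genes with a position in the RefSeq table. The members were chosen by symbol, as genes with a known effect on axons, and a peak was given to a gene when it touched the gene body or the 10 kb on either side. Each list belonged to 1 of 4 assays, which were ChIP-seq for the histone marks H3K9ac, H3K27ac and H3K27me3, and ATAC-seq, which reads DNA that a transposase can reach. The tissue was the sciatic dorsal root ganglia, levels L4 to L6, of C57BL/6 mice aged 6 to 8 weeks, taken 24 hours after 1 of 4 surgeries. The groups were sciatic nerve axotomy (SNA), its sham operation (Sham), dorsal column axotomy (DCA), which cuts the central branch of the same neurons in the spinal cord, and its control laminectomy (Lam), in which only the vertebral arch is opened. No genetic change is named in the labels, and all 4 groups were operated on. The labels list 60 samples. For each mark and surgery there were 2 ChIP samples and 2 inputs, each pooled from 10 mice, and for each surgery 3 ATAC samples, each from 1 mouse. The ganglia were used whole, so sensory neurons, satellite glia, Schwann cells and blood vessel cells could contribute to every list.

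Kruppel-like factors are zinc finger proteins that bind CACCC and related GC-rich boxes, where they compete with the Sp factors. In neurons of the central and peripheral nervous system the family is known for opposed effects on axons. Klf6 and Klf7 promote axon growth. Klf4 and Klf9 limit growth, Klf4 being better known as a reprogramming factor and Klf9 as a target of thyroid hormone and glucocorticoids. H3K9ac and H3K27ac lie at active promoters and enhancers, and H3K27me3 is laid down by Polycomb complexes at silent genes.

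The promoters of Klf6, Klf7, Klf4 and Klf9 are shown because these genes form the growth-promoting and the growth-limiting pair, and the start peaks described further on lie over or beside these bases. Each runs 5′ to 3′ on the strand of the gene, from 250 bases before to 50 bases after the start, and comes from RefSeq's promoter table on GRCm38.p6. Capitals mark matches on either strand. Searched were CACCC, the core of the box bound by the family, GGGCGG, the GC box of the Sp factors, CCAAT, bound by nuclear factor Y, and TATAAA, the core promoter box. Further motifs were TGANTCA, the AP-1 type site, then TGACGT, the cAMP response type site, then AGAACA, part of the glucocorticoid receptor site, and the CArG box by its name alone.
Klf6, chr13:5861239-5861538, plus strand: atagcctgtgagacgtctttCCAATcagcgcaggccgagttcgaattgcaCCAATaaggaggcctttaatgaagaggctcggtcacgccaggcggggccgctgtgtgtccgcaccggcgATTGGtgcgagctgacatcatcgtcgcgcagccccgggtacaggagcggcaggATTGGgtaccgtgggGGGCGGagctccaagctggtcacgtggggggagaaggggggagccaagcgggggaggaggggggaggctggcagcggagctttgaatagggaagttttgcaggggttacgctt
Klf7, chr1:64121340-64121639, minus strand: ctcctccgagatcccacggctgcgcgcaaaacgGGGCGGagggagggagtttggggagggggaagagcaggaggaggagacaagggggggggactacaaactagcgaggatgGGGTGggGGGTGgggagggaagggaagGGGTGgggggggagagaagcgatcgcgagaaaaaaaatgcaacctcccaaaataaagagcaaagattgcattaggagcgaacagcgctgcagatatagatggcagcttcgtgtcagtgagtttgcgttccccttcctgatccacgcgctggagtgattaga
Klf4, chr4:55532426-55532725, minus strand: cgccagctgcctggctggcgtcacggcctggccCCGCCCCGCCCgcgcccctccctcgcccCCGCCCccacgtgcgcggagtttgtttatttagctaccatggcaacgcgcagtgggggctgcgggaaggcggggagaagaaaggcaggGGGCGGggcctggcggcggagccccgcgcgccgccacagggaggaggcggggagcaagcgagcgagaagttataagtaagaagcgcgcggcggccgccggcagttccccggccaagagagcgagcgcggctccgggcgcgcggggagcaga
Klf9, chr19:23140976-23141275, plus strand: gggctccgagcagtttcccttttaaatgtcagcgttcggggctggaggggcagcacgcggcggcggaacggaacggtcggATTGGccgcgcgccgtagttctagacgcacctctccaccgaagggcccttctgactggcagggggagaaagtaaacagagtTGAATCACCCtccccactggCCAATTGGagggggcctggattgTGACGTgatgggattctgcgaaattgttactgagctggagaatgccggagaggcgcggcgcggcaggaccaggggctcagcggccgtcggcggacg
The Klf6 promoter held 4 matches to CCAAT, first bases at -230, -200, -131 and -78 from the start, and 1 match to GGGCGG at -63. In the Klf7 promoter lay 3 matches to CACCC, the box the family itself binds, at -138, -131 and -111, and 1 to GGGCGG at -217. Klf4 had 4 matches to GGGCGG, of which those at -217 and -212 overlap by 1 base, and none to the other motifs. Klf9 had 3 matches to CCAAT, at -170, -69 and -66, and 1 each to TGANTCA at -89, CACCC at -84 and TGACGT at -46, and the TGANTCA and CACCC matches overlap, as do those to CCAAT at -69 and -66. GC content was 63.0% in Klf6, 58.3% in Klf7, 74.3% in Klf4 and 63.3% in Klf9, against a median of 56.3% over 21263 promoters of 17492 coding genes. CpG sites numbered 23, 16, 40 and 28 in the same order, against a median of 13.

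The promoter table held 7 of the 10 members, Klf5, Klf10 and Klf16 being absent from it. CACCC was found in 5 of the 7 promoters (59.5% of all 21263), GGGCGG in 6 (46.2%), CCAAT in 4 (38.2%), TGACGT in 2, those of Klf9 and Klf13 (8.49%), and TGANTCA in 1, that of Klf9 (6.99%). TATAAA (12.6% of all promoters), AGAACA (16.2%) and the CArG box (1.52%) had no match in these 7 windows. A match describes the letters of the window and does not show that a factor bound there.

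Each list had been made by the authors from all replicates of a condition together, so there is 1 list per assay and surgery, no replicate error and no p-value. Percentages carry Wilson 95% intervals that cover counting error only, and they treat neighbouring peaks as independent, which they are not. Depth is unknown, and the lists differed in length: H3K9ac lists held 50332 to 89647 peaks, H3K27ac 43803 to 75824, H3K27me3 90011 to 154055 and ATAC 153556 to 174605. A peak number in a gene window moves with that length, so summed counts and shares are set beside the same over all coding genes. This was not done under alternative settings, such as lists cut to equal length or a stricter q limit. Of the H3K27me3 peaks, between 43 and 1613 per list had a q of at most 0.05, so H3K27me3 calls are weak throughout. Among marker genes of the ganglion, 9 or 10 of 10 sensory neuron genes had an ATAC peak at the start, but only 2 to 4 had an H3K9ac peak there, whereas 6 of 7 genes of satellite glia and Schwann cells had one in every list. Macrophage genes had an H3K9ac start peak in 0 or 1 of 6 cases, endothelial genes in 2 or 3 of 5, and genes of other tissues in 0 or 1 of 6. In a bulk tissue, fewer cells with a mark and less of it per cell cannot be told apart.

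The members formed some of the more densely acetylated gene windows of the genome. Their median H3K9ac density was 1.88 peaks per 10 kb for Sham, 3.32 for SNA, 1.55 for Lam and 3.03 for DCA, where the median coding gene had 0.254, 0.338, 0.274 and 0.428. Median H3K27ac density was 1.54, 3.22, 2.54 and 1.99 peaks per 10 kb in the same order, against 0.21, 0.325, 0.311 and 0.221. The 90th percentile of all genes was 1.54, 2.07, 1.42 and 2.33 for H3K9ac and 1.21, 1.94, 1.78 and 1.34 for H3K27ac, and the member median lay above it in each of these lists. Densities were not matched for gene length, and short genes have the start in a larger part of the window. ATAC density stood out less, with member medians of 1.74, 1.95, 1.91 and 1.33 against 0.917, 1.09, 0.969 and 1.0. H3K27me3 was sparse, with member medians of 0.173, 0, 0.113 and 0 peaks per 10 kb against 0.364, 0.308, 0.476 and 0.

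**Figure D1:**
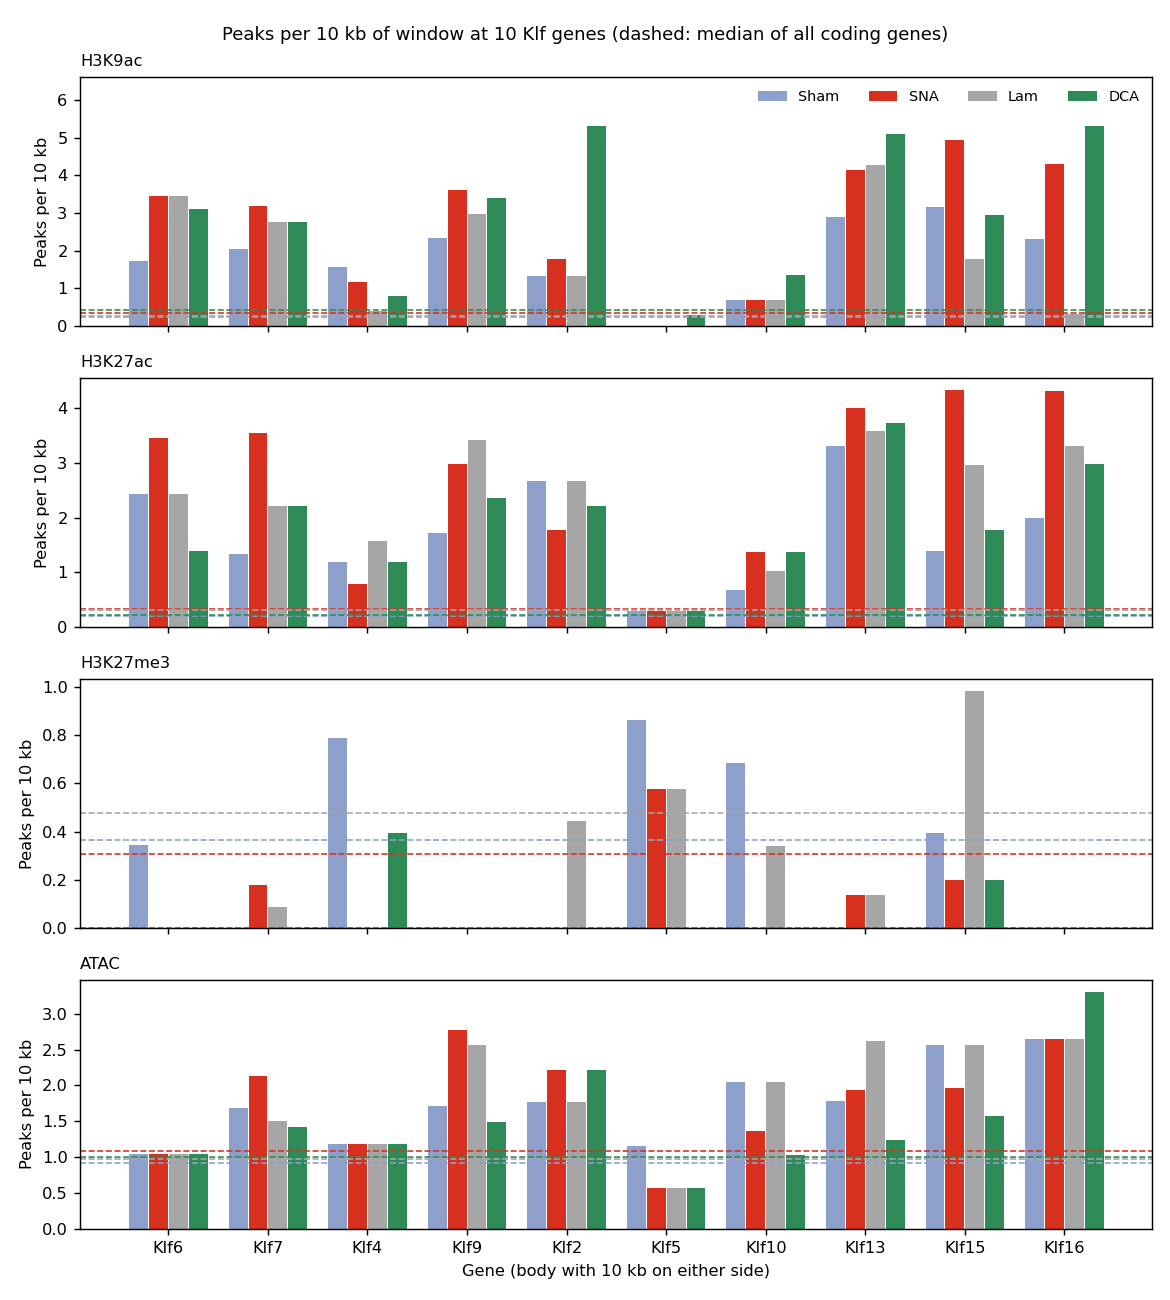
Peaks per 10 kb of gene window (y axis) for the 10 Klf genes (x axis) in the 4 assays, with 1 bar per surgery list and dashed lines at the median of all 21887 coding genes in the same list. For H3K9ac 9 of the 10 genes stand above the dashed line in every list, and the bars of Klf5 lie near or below it in both acetylation panels. H3K27me3 bars are absent or below 1 peak per 10 kb. Some of them stand above the dashed line, among them Klf4, Klf5 and Klf10 in Sham and Klf15 in Lam.

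Klf5 had the fewest acetylation peaks of the members. This gene, best known in epithelium and smooth muscle, had 0 H3K9ac peaks in Sham, SNA and Lam and 1 in DCA, and exactly 1 H3K27ac peak in each list. Its ATAC peak at the gene's end near base 99298691 was called in all 4 lists, and between 784 and 1357 peaks of a list were stronger. The DNA there was thus called open in each list, while H3K9ac was called in DCA alone. Klf5 also had H3K27me3 peaks in Sham (3), SNA (2) and Lam (2), with folds of 1.02 to 1.23 and none at q of at most 0.05.

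An ATAC peak lay within 1 kb of the start of all 10 members in each of the 4 lists, against 68.8% of coding genes for Sham, 70.7% for SNA, 69.0% for Lam and 70.1% for DCA. H3K9ac start peaks were called at 8 members for Sham (50.1% of coding genes), 9 for SNA (51.4%), 8 for Lam (51.1%) and 10 for DCA (59.9%), Klf5 and Klf16 being the members without one. H3K27ac start peaks were called at 9 members for Sham (40.4%), 10 for SNA (51.6%), 9 for Lam (51.3%) and 9 for DCA (43.3%), the missing member each time being Klf5. These counts depend on the 1 kb allowance: a peak over the start base itself was called at 1, 2, 1 and 7 members for H3K9ac (Sham, SNA, Lam and DCA), at 3, 2, 4 and 2 for H3K27ac, and at 10, 10, 9 and 10 for ATAC. With only peaks whose −log10 q reached 5 kept, H3K9ac start peaks were left at 3 members in Sham, 3 in SNA and 5 in Lam. In DCA the strongest start peak of every member but Klf16 (−log10 q of 3.33) still reached it. At that limit the H3K9ac lists held 2137 peaks for Sham, 8031 for SNA, 7108 for Lam and 42723 for DCA, and the share of all genes is not given here. H3K27me3 start peaks were called at 1 member for Sham, Klf15 (22.2%), at 0 for SNA (16.9%), at 1 for Lam, Klf10 (25.1%), and at 0 for DCA (8.46%). For Klf5, Klf10 and Klf16 the strand was not in the table and either end of the gene counted as a start. The Klf10 H3K27me3 peak of Lam (fold 1.08, −log10 q of 0) lay at the end near base 38291464. The strongest ATAC and acetylation start peaks of Klf10 lay at its other end, near base 38300711. For Klf16 the ATAC start peaks lay at the end near base 80577296, whereas the strongest acetylation start peaks of 5 lists, H3K9ac in SNA and DCA and H3K27ac in Sham, Lam and DCA, lay at the end near base 80567121.

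The Klf6 start was the most strongly called of the 10 members in ATAC. Klf6, an injury-responsive growth promoter, had exactly 3 ATAC peaks in its window in each of the 4 lists, and the one over the start had a fold enrichment of 11.5 for Sham, 12.4 for SNA, 10.8 for Lam and 9.45 for DCA. These folds, like all folds, −log10 p and −log10 q values here, are the authors' own values for a peak within its list and are used only to rank or describe peaks there. Only 22 peaks of the Sham list, 24 of SNA, 42 of Lam and 85 of DCA had a higher −log10 p. The ATAC peak covered all 300 printed promoter bases in each list, the 4 CCAAT matches and the GGGCGG match included. It reached from -775 to 233 bp from the start in Sham and from -988 to 299 bp in DCA. The other ATAC peaks of the window lay in the gene body and just past its end, with folds between 1.96 and 2.23, and all 3 regions were common to the 4 lists.

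H3K9ac at Klf6 lay on either side of the start. An upstream H3K9ac peak ran from -970 to -257 bp for Sham, -1014 to -315 for SNA, -990 to -313 for Lam and -1082 to -286 for DCA, so 0 of the 300 printed bases fell in an H3K9ac peak in any list. On the other side lay a wider peak, chr13:5861616-5863834 in Sham, with similar limits in SNA (5861588 to 5863899), Lam (5861748 to 5863785) and DCA (5861584 to 5863927). The upstream H3K9ac peak was outranked by 116 peaks for Sham, 2 for SNA, 15 for Lam and 1160 for DCA. The strongest H3K27ac start peak of Klf6 ranked behind 6628 peaks for Sham, 22 for SNA, 2020 for Lam and 4000 for DCA. It was not the same site in each list. It lay upstream in SNA (-1094 to -319 bp) and Lam (-1093 to -265). In Sham it lay over the start (-165 to 761), and in DCA after it (15 to 828). A position in lists of different lengths shows no change between surgeries, and none is read from it.

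Klf7 also had highly ranked acetylation peaks at the start. In the Lam list its H3K9ac peak from -1437 to -458 bp had the highest −log10 p of all 50667 peaks, and in SNA 28 H3K9ac peaks were stronger. The strongest H3K27ac peak at the Klf7 start had a fold of 14.3 in SNA, with 17 stronger peaks, and of 4.29 in Sham with 11717 stronger. It had a fold of 8.13 in Lam with 2745 stronger, and of 7.58 in DCA with 3109 stronger. These peaks were not the same site. The SNA peak lay upstream, from -937 to -598 bp. The others lay over the start, from -160 to 2402 bp in Sham, -411 to 3792 in Lam and -158 to 3625 in DCA. The ATAC start peak had folds of 6.75, 6.21, 5.45 and 5.68 in Sham, SNA, Lam and DCA, and covered all 300 printed bases in 3 lists and 153 in Lam. The Klf7 gene record extends to base 64122345, upstream of the start at 64121389, and the ATAC peak continued over that stretch to between -1181 and -1235 bp.

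The start peaks of Klf4 ranked behind those of Klf6 in each of the 12 ATAC and acetylation lists. Klf9, however, ranked before both Klf6 and Klf7 in H3K9ac in DCA and in H3K27ac in Lam and DCA. Both Klf4 and Klf9 ranked before Klf7 in H3K27ac in Sham, and Klf4 did so in ATAC in Lam. The strongest Klf4 H3K9ac start peak had folds of 4.5 for Sham, 3.91 for SNA, 3.27 for Lam and 6.36 for DCA. In the same lists 5793, 19321, 14583 and 4816 peaks were stronger. That start peak lay after the start in Sham (546 to 1864 bp) and SNA (537 to 1822), and upstream in Lam (-1151 to -356). In DCA that peak was 3663 bp wide and covered all 300 printed bases, while in the 3 other lists 0 of them lay in an H3K9ac peak. The strongest H3K27ac start peak of Klf4 lay upstream in each list, from -1231 to -628 bp in Sham for example, with 2421 to 13835 stronger peaks. The Klf4 ATAC start peak had folds of 4.43, 3.97, 5.39 and 4.78 and covered the whole printed promoter in each list.

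Klf9 had the weakest ATAC start peaks of the 4 genes, with folds of 2.95 for Sham, 3.32 for SNA, 3.13 for Lam and 3.49 for DCA and 5533 to 8426 stronger peaks. They covered all 300 printed bases, the TGANTCA and TGACGT matches included. Its strongest H3K9ac start peak was outranked by 2037 peaks for Sham, 19190 for SNA, 247 for Lam and 779 for DCA. For its strongest H3K27ac start peak the numbers were 8133, 120, 1875 and 2331. These were not the same sites in each list. The H3K9ac peak lay upstream in SNA (-1034 to -614 bp) and over the start in the others. The H3K27ac peak lay upstream in Sham (-1733 to -994) and after the start in the others. In DCA H3K9ac covered all 300 printed bases, in Sham 242, in Lam 157 and in SNA 0. Upstream of Klf9 a further cluster was common to the 4 lists of each of these assays, the regions being chr19:23133000-23137597 for H3K9ac, chr19:23132534-23137845 for H3K27ac and chr19:23133809-23136660 for ATAC. The strongest H3K27ac peak of the Klf9 window lay in that cluster in Sham (fold 9.75), Lam (8.75) and DCA (8.28), and at the start in SNA (11.1).

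**Figure D2:**
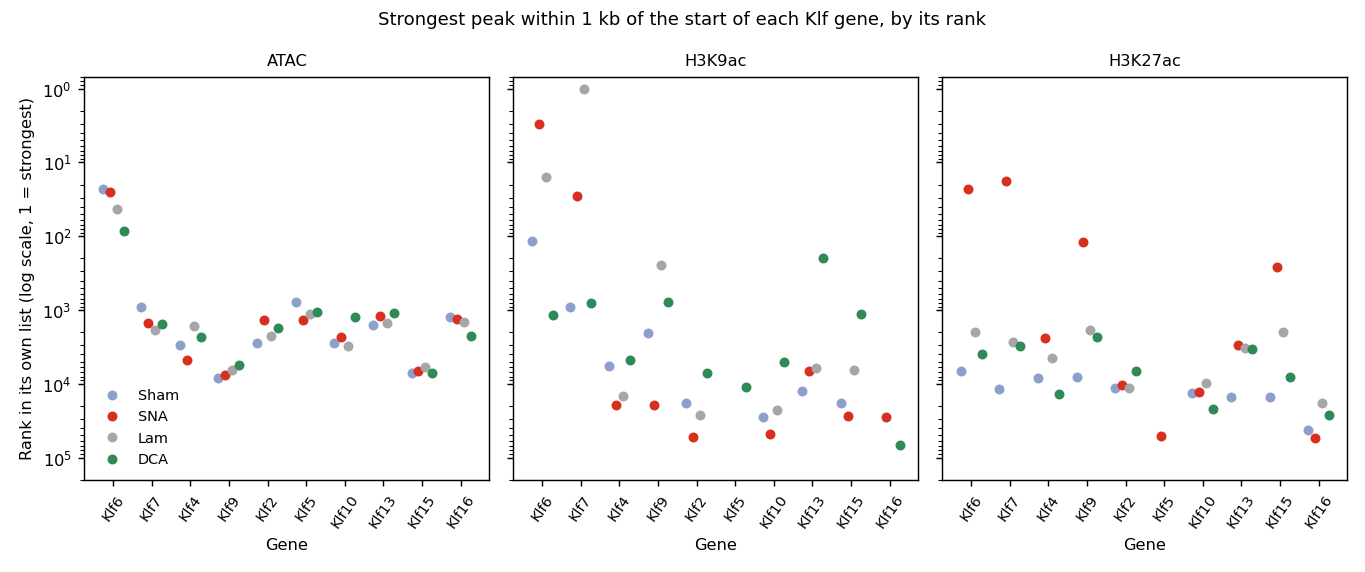
Rank of the strongest peak within 1 kb of the start of each Klf gene (x axis) among all peaks of its own list (y axis, log scale, 1 is the strongest), with 1 point per surgery list in ATAC, H3K9ac and H3K27ac. Klf6 stands alone in ATAC and Klf6 and Klf7 lead in H3K9ac in 3 lists. Ranks come from lists of different lengths, and not always from the same site, and show no change between surgeries.

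Among the remaining members the start peaks varied. Klf2, a factor known from endothelium and quiescent T cells, had ATAC folds at the start of 4.57, 5.93, 4.65 and 5.01 in Sham, SNA, Lam and DCA. Its H3K9ac start peak was weak in SNA, where 52878 of 74652 peaks were stronger. Klf13, described first as a regulator of the chemokine gene Ccl5 in T cells, had an H3K9ac start peak with 196 stronger peaks in DCA and 6142 to 12559 in the other lists. Klf15, a metabolic regulator induced by glucocorticoids, had an H3K27ac start peak with 261 stronger peaks in SNA and 1995 to 15270 in the others. Klf10, induced by transforming growth factor beta, had an ATAC peak at its end near base 38300711 with folds of 4.02, 4.35, 3.74 and 4.76.

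Comparing sciatic axotomy with its sham, the windows of the 10 genes held 140 H3K9ac peaks in SNA and 92 in Sham. SNA thus gave 60.3% of both lists' peaks (95% interval 53.9 to 66.4), against 59.3% over the windows of all coding genes. For H3K27ac there were 139 peaks in SNA and 79 in Sham, or 63.8% (57.2 to 69.9), the same share as over all genes (63.8%). ATAC counts were 86 and 81, or 51.5% (44.0 to 59.0; all genes 53.9%), and H3K27me3 counts 6 and 10, or 37.5% (18.5 to 61.4; all genes 51.9%). The members' excess of acetylation peaks in SNA was thus of the size seen over all genes, and with lists cut to equal length it was 53.8% for H3K9ac and 51.5% for H3K27ac. By gene, H3K9ac peaks were more numerous in SNA at 7 members (38.9% of coding genes, 57.5% of those with a peak in either list) and fewer at 1, Klf4 (11.4% and 16.8%). H3K27ac peaks were more numerous at 7 (43.9% and 63.9%) and fewer at 2, Klf4 and Klf2 (12.8% and 18.6%), and ATAC peaks more numerous at 4 (46.8%) and fewer at 3 (24.1%). H3K27me3 peaks were more numerous at 2 (32.5%) and fewer at 5 (33.8%).

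Comparing dorsal column axotomy with laminectomy, H3K9ac counted 143 peaks in DCA and 102 in Lam, or 58.4% in DCA (52.1 to 64.4; all genes 63.4%). For H3K27ac there were 98 in DCA and 113 in Lam, or 46.4% (39.8 to 53.2; all genes 41.1%). ATAC had 66 and 87, or 43.1% (35.6 to 51.1; all genes 50.2%), and H3K27me3 2 and 11, or 15.4% (4.33 to 42.2; all genes 32.8%). Each all-gene share lies inside the interval of the members. With lists cut to equal length both acetylation directions turned, DCA giving 43.8% for H3K9ac and 54.7% for H3K27ac. The all-gene shares at equal length are not given here. The ATAC share turned to 56.5% among peaks whose −log10 q reached 5. H3K9ac peaks were more numerous in DCA at 8 members (47.6% of coding genes, 67.7% of those with a peak) and fewer at 1, Klf6 (8.63% and 12.3%). H3K27ac peaks were more numerous at 2 (12.1% and 17.9%) and fewer at 6 (38.9% and 57.8%), ATAC peaks more numerous at 2 (35.1%) and fewer at 5 (34.7%), and H3K27me3 peaks more numerous at 1 (10.3%) and fewer at 6 (61.5%).

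The lists of the 2 control surgeries were compared as well, and this comparison shares its lists with both of the above. Lam gave 52.6% of the H3K9ac peaks of Lam and Sham (102 and 92; all genes 50.1%) and 58.9% of the H3K27ac peaks (113 and 79; interval 51.8 to 65.6; all genes 60.9%). For ATAC the share was 51.8% (87 and 81; all genes 52.0%) and for H3K27me3 52.4% (11 and 10; all genes 57.3%). By gene, H3K27ac peaks were more numerous in Lam at 7 members (41.6% of coding genes, 61.1% of those with a peak) and fewer at 0 (11.1% and 16.3%), and H3K9ac peaks more numerous at 4 (25.1% and 37.6%) and fewer at 3 (23.0% and 34.3%). ATAC peaks were more numerous in Lam at 2 members (41.4%) and fewer at 2 (29.4%), and H3K27me3 peaks more numerous at 4 (48.3%) and fewer at 4 (21.3%). The H3K27ac share of 58.9% between the control surgeries stands beside 63.8% for SNA against Sham, and at equal list length it was 49.7%, on the other side of 50%.

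**Figure D3:**
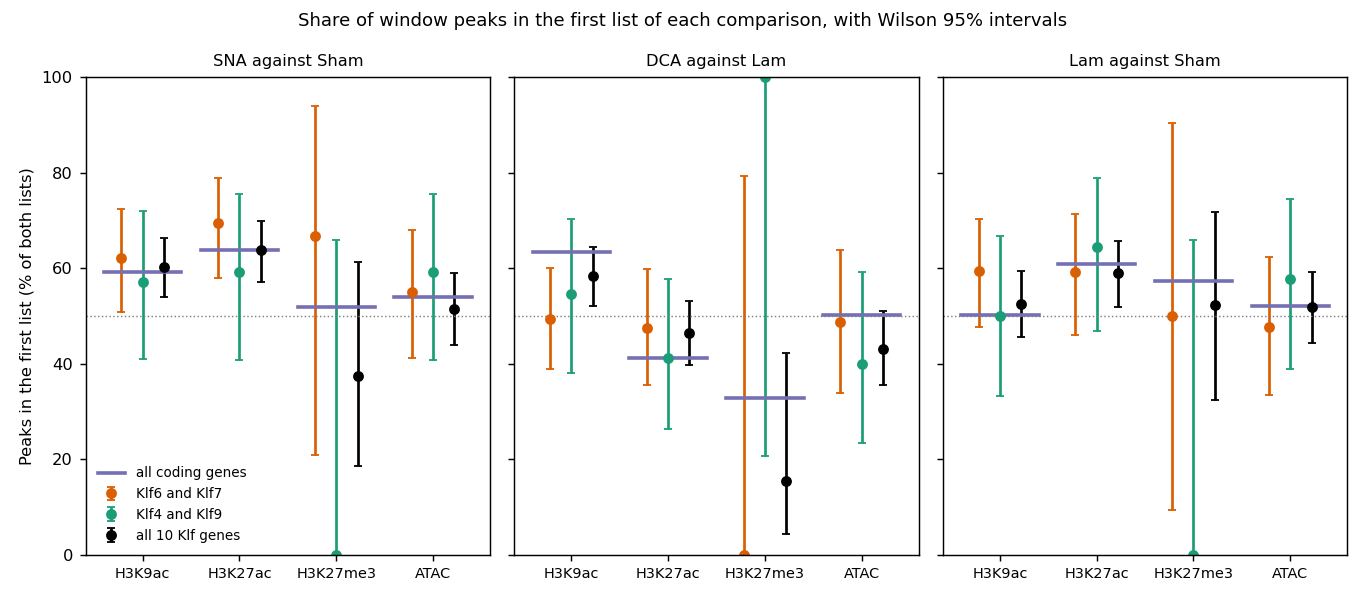
Share of window peaks that lie in the first list of each comparison (y axis, percent of the peaks of both lists) for the 4 assays (x axis), for Klf6 with Klf7, Klf4 with Klf9 and all 10 genes; bars are Wilson 95% intervals for counting error only, and purple lines give all coding genes. The intervals of the 10 genes include the purple line in each assay and comparison, and those of the pairs overlap each other wherever both have peaks.

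The growth-promoting pair was set beside the growth-limiting pair in the same counts. Klf6 and Klf7 together held 28 H3K9ac peaks for Sham, 46 for SNA, 41 for Lam and 40 for DCA, and Klf4 and Klf9 held 15, 20, 15 and 18. SNA gave 62.2% (50.8 to 72.4) of the pair's peaks for Klf6 and Klf7 and 57.1% (40.9 to 72.0) for Klf4 and Klf9. Both intervals include the all-gene share of 59.3%. DCA gave 49.4% (38.8 to 60.0) of the peaks of DCA and Lam for the promoting pair, an interval below the all-gene share of 63.4%, and 54.5% (38.0 to 70.2) for the limiting pair. That DCA share of the promoting pair was 37.5% at equal list length, 79.3% among peaks whose −log10 q reached 5 and 62.0% by covered length, so it has no settled direction. H3K27ac peaks numbered 22, 50, 32 and 29 at Klf6 and Klf7 in Sham, SNA, Lam and DCA, and 11, 16, 20 and 14 at Klf4 and Klf9. The SNA shares were 69.4% (58.0 to 78.9) and 59.3% (40.7 to 75.5), and the DCA shares 47.5% (35.5 to 59.8) and 41.2% (26.4 to 57.8). Both SNA intervals include the all-gene share of 63.8%, and both DCA intervals that of 41.1%. The SNA share of the promoting pair was 56.0% at equal list length and 55.6% among peaks whose −log10 q reached 5. At equal list length the DCA share of the promoting pair was 60.9%, on the other side of 50%. ATAC peaks numbered 22, 27, 20 and 19 at the promoting pair and 11, 16, 15 and 10 at the limiting pair. The SNA shares were 55.1% and 59.3% (all genes 53.9%). The intervals of the pairs overlapped in each of these comparisons. Overlap of intervals is no test, and a difference between the pairs was not tested.

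Per length, the pairs had similar acetylation in Sham. H3K9ac density was 1.97 peaks per 10 kb at Klf6 and Klf7 and 2.08 at Klf4 and Klf9, and H3K27ac density 1.55 and 1.52. In SNA H3K27ac density was 3.53 at the promoting pair and 2.21 at the limiting pair, and in Lam it was 2.26 and 2.77. Measured as covered sequence, H3K27ac peaks spanned 24.3% of the windows of Klf6 and Klf7 and 24.1% of those of Klf4 and Klf9 in SNA, against 13.7% and 14.0% in Sham. At the promoting pair the SNA peaks were thus more numerous per length than at the limiting pair, while the covered shares were alike.

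Of the 110 single-gene shares, 5 had an interval that leaves out 50%, and 3 had one that leaves out the share over all genes, Klf16 H3K9ac in DCA against Lam and in Lam against Sham, and Klf7 H3K9ac in DCA against Lam. Klf7 had the largest difference in H3K27ac peak number between SNA and Sham. Its H3K27ac peaks numbered 15 for Sham, 40 for SNA, 25 for Lam and 25 for DCA, and SNA gave 72.7% of the SNA and Sham peaks (59.8 to 82.7), an interval that includes the all-gene share of 63.8%. Of the 40 SNA peaks, 28 overlapped no Sham peak, or 70.0% (54.6 to 81.9), and over all gene windows this was so for 63.9% of SNA peaks. The gene body, 92.9 kb long, was touched by 36 of the 40 in SNA and 11 of the 15 in Sham. Klf7 H3K9ac peaks numbered 23, 36, 31 and 31, and ATAC peaks 19, 24, 17 and 16, with Sham lowest in H3K9ac and SNA highest in both.

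Klf6, with a window of 28.9 kb, had 5 H3K9ac peaks for Sham, 10 for SNA, 10 for Lam and 9 for DCA, so Sham was the low list and the laminectomy control was as high as SNA. H3K27ac peaks there numbered 7, 10, 7 and 4, with DCA lowest. Klf4 had few peaks in any list: 4, 3, 1 and 2 for H3K9ac, 3, 2, 4 and 3 for H3K27ac, and 3 in each ATAC list. Klf9 had 11, 17, 14 and 16 H3K9ac peaks, 8, 14, 16 and 11 H3K27ac peaks, and 8, 13, 12 and 7 ATAC peaks. For H3K27ac and ATAC at Klf9 both SNA and Lam were above Sham and DCA.

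**Figure D4:**
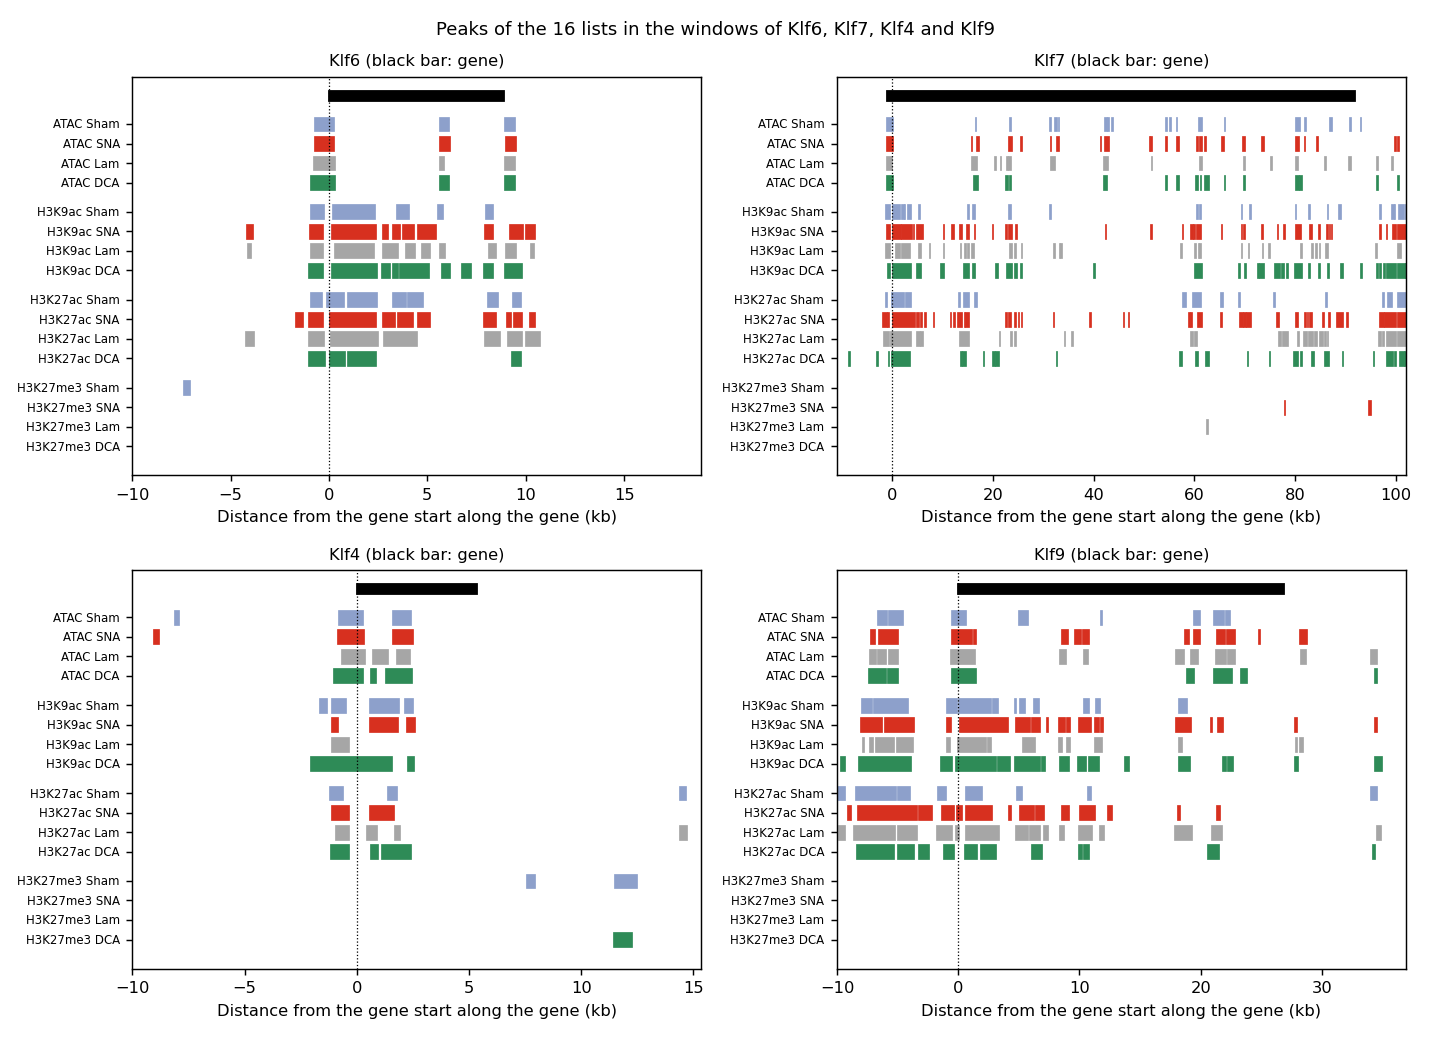
Peaks of the 16 lists in the windows of Klf6, Klf7, Klf4 and Klf9 by distance from the gene start along the gene (x axis, kb), with 1 row per assay and surgery and the gene as a black bar. The Klf6 ATAC peak spans the gap that the H3K9ac peaks leave at the start in each list, 36 of the 40 Klf7 H3K27ac peaks of SNA touch the gene body, and Klf9 has a cluster upstream of the start in each ATAC and acetylation list.

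Klf15 had 7 H3K27ac peaks for Sham, 22 for SNA, 15 for Lam and 9 for DCA, an SNA share of 75.9% (57.9 to 87.8) whose interval again includes 63.8%. With only peaks whose −log10 q reached 5 kept that share was 45.5%, from 5 SNA and 6 Sham peaks, so the direction at Klf15 rested on weaker peaks. This was not particular to Klf15, since the whole lists held 24680 SNA and 25221 Sham peaks at that limit. Its H3K9ac peaks numbered 16, 25, 9 and 15. Klf13, with a 52.6 kb gene body, had 21, 30, 31 and 37 H3K9ac peaks, 24, 29, 26 and 27 H3K27ac peaks and 13, 14, 19 and 9 ATAC peaks. Klf10 had 2, 2, 2 and 4 H3K9ac peaks and 2, 4, 3 and 4 H3K27ac peaks.

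Klf2 and Klf16 were the members whose DCA share of H3K9ac had an interval above 50%. Klf2 had 3, 4, 3 and 12 H3K9ac peaks in Sham, SNA, Lam and DCA, so DCA gave 80.0% of the DCA and Lam peaks (54.8 to 93.0), an interval that includes the all-gene 63.4%. The peaks spanned 6.07% of its 22.6 kb window for Sham, 6.06% for SNA, 5.98% for Lam and 30.7% for DCA. DCA alone held 11 of the 14 H3K9ac regions of the window, where over all windows 28.0% of regions were of that kind. These 11 all lay outside the 2.59 kb gene body, from chr8:72309440-72310011 to chr8:72331226-72331851, at folds of 1.94 to 4.16. H3K27ac peaks at Klf2 showed no such excess, with 6, 4, 6 and 5.

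Klf16, known as a repressor of dopamine receptor promoters, had 7, 13, 1 and 16 H3K9ac peaks. DCA gave 94.1% of the DCA and Lam peaks (73.0 to 99.0), an interval above the all-gene share of 63.4%. Here Lam was the list that stood apart, since it gave 12.5% (2.24 to 47.1) of the Lam and Sham peaks, below the all-gene 50.1%. H3K27ac peaks at Klf16 numbered 6, 13, 10 and 9, so Lam was not low in that mark. The Klf16 window also touches the coding genes Rexo1 and Abhd17a, and the Klf13 window touches E030018B13Rik; peaks there may belong to those genes. The windows of the 8 other members touched no further coding gene. Non-coding gene records lay in the windows of all members but Klf2, Klf5 and Klf15, for example 2410080I02Rik at Klf9 and 1700016G22Rik at Klf6. Peaks there may likewise belong to those records.

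Peaks of the 4 lists of an assay were merged into regions to find those shared by surgeries. Of 168 H3K9ac regions at the members, 40 were found in all 4 lists, 23.8% against 19.9% over all gene windows. Found in both axotomy lists and neither control list were 12, or 7.14% (all windows 8.5%), and in both control lists and neither axotomy list 2, or 1.19% (0.339%). Of 152 H3K27ac regions, 42 were in all 4 lists, or 27.6% (14.7%), 4 in the axotomy lists alone, or 2.63% (2.36%), and 2 in the control lists alone, or 1.32% (2.41%). Of 132 ATAC regions, 34 were in all 4 lists, or 25.8% (12.2%), 4 in the axotomy lists alone, or 3.03% (4.35%), and 5 in the control lists alone, or 3.79% (2.64%). None of the 27 H3K27me3 regions was in all 4 lists (3.95%), in the axotomy lists alone (1.82%) or in the control lists alone (4.96%). These counts depend on the lists: at equal list length the H3K9ac counts were 3 in the axotomy lists alone and 4 in the control lists alone, and 4 H3K27ac regions were in the control lists alone. Among peaks whose −log10 q reached 5, the axotomy lists alone held 7 H3K9ac regions and 1 ATAC region, and the control lists alone 0 of either. The shares over all windows under these settings are not given here.

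By gene, the axotomy regions fell at Klf7 (3 H3K9ac, 2 H3K27ac and 3 ATAC), Klf13 (3 H3K9ac and 1 ATAC), Klf9 (2 H3K9ac and 1 H3K27ac), Klf15 and Klf16 (2 H3K9ac each) and Klf10 (1 H3K27ac). Klf6, Klf4, Klf2 and Klf5 had 0 in any of the 3 assays. The H3K9ac regions with the highest −log10 p were chr7:63933409-63934242 in Klf13, with folds of 2.66 in SNA and 4.6 in DCA, chr19:23162567-23163309 in Klf9 (3.18 and 3.68), and chr1:64051112-64051763 in Klf7 (3.7 and 3.71). For H3K27ac they were chr19:23137869-23139027, centred at -2.778 kb from the Klf9 start (4.98 and 4.8), chr1:64031818-64033236 (4.84 and 4.4) and chr1:64050129-64051064 (4.04 and 4.52), both in the Klf7 body. For ATAC all 3 were at Klf7: chr1:64020657-64021191 in the flank past the gene's far end (3.02 and 2.08), chr1:64060719-64061295 (1.87 and 2.01) and chr1:64058457-64059453 (2.0 and 1.79). Coordinates are on mm10, the build the submitters' processing notes name, and the annotation used gives gene bodies but not exons.

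At 1 place in the Klf7 body acetylation regions of both kinds of pattern adjoined. H3K9ac region chr1:64050201-64050799 was called in Sham and Lam only (folds of 3.2 and 3.27, −log10 p of 3.45 and 4.74). The Sham call was weak: another Sham H3K9ac peak at Klf7 with a −log10 p of 3.45 had a −log10 q of 0.944. Region chr1:64050201-64050799 lies inside the H3K27ac region chr1:64050129-64051064 and next to the H3K9ac region chr1:64051112-64051763, which were in SNA and DCA only. In SNA and DCA the −log10 p was 6.91 and 7.88 for that H3K27ac region and 4.93 and 8.1 for that H3K9ac region. The other H3K9ac region in both controls alone was chr7:63882733-63883207 beyond the far end of Klf13 (folds of 3.08 and 3.19). Its Sham call was as weak, with a −log10 p of 3.45, against 4.83 in Lam. H3K27ac regions in both controls alone were chr4:55517775-55518129, at 14.52 kb from the Klf4 start and past the gene (folds of 5.88 in Sham and 5.4 in Lam), and chr6:90484569-90485108 in the Klf15 body (4.6 and 4.25). In ATAC the 3 strongest were chr1:64030297-64030796 in Klf7 (2.36 and 2.54), chr6:90457071-90457655, upstream of Klf15 (1.81 and 2.09), and chr7:63901351-63901844 in Klf13 (1.86 and 1.92).

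ATAC peaks at the members overlapped acetylation peaks more often than those of all gene windows. Of the ATAC peaks in the 10 windows, 45.7% overlapped an H3K9ac peak for Sham (37 of 81; 35.3 to 56.5; all windows 18.3%), 57.0% for SNA (49 of 86; 46.4 to 66.9; 21.0%), 36.8% for Lam (32 of 87; 27.4 to 47.3; 16.3%) and 74.2% for DCA (49 of 66; 62.6 to 83.3; 26.0%). For H3K27ac the values were 39.5% for Sham (29.6 to 50.4; all windows 13.8%), 54.7% for SNA (44.2 to 64.7; 18.7%), 51.7% for Lam (41.4 to 61.9; 19.4%) and 48.5% for DCA (36.8 to 60.3; 13.8%). H3K27me3 met 2.47% of them for Sham (all windows 14.2%), 0% for SNA (at most 4.28%; 10.2%), 3.45% for Lam (20.3%) and 0% for DCA (at most 5.5%; 3.89%). Each acetylation interval lies above the all-window share. When the mark had to cover at least 50% of the ATAC peak, the H3K9ac values were 25.9% for Sham, 38.4% for SNA, 19.5% for Lam and 59.1% for DCA, and the H3K27ac values 23.5%, 27.9%, 35.6% and 30.3%. Among peaks whose −log10 q reached 5 the H3K9ac value was lower, 18.2% in Sham and 26.7% in SNA, and the H3K27ac value higher, 68.2% in Sham and 75.0% in Lam. The share over all windows was not computed under those settings. The higher DCA value for H3K9ac goes with the longest H3K9ac list, and the part of list length in it was not tested.

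**Figure D5:**
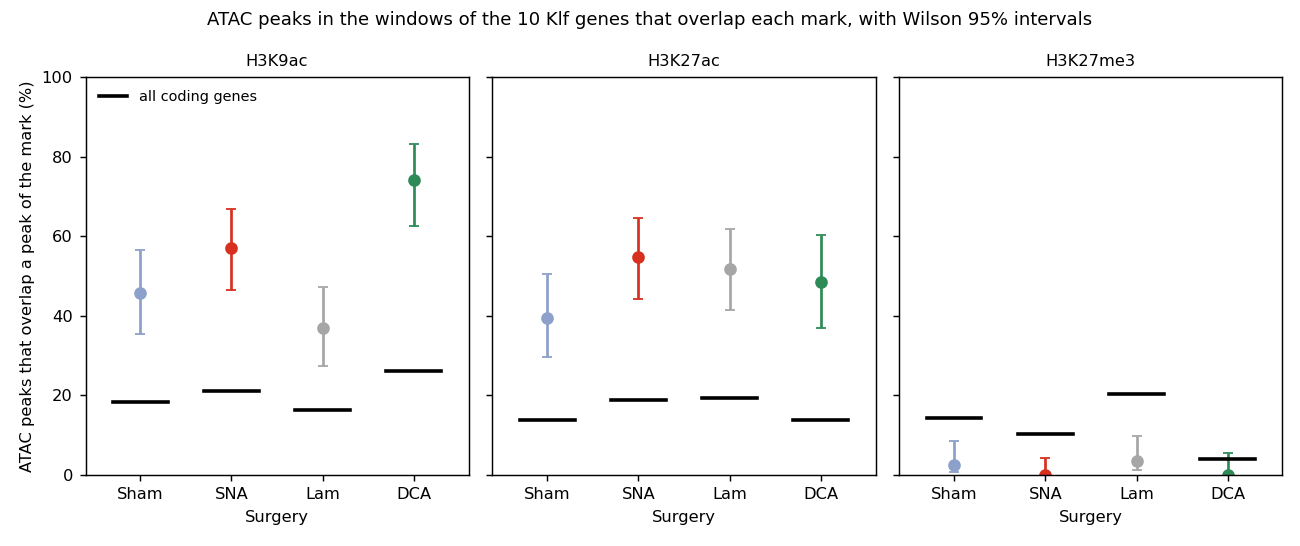
Percent of ATAC peaks in the windows of the 10 Klf genes (y axis) that overlap a peak of H3K9ac, H3K27ac or H3K27me3 of the same surgery (x axis); points carry Wilson 95% intervals for counting error only, and black lines give all coding gene windows. Acetylation points lie between 36.8% and 74.2%, above the black lines, and H3K27me3 points at or below 3.45%.

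Within the pairs, ATAC peaks overlapped H3K27ac at Klf4 and Klf9 in 54.5% of cases for Sham (28.0 to 78.7), 62.5% for SNA, 86.7% for Lam (62.1 to 96.3) and 80.0% for DCA (49.0 to 94.3). At Klf6 and Klf7 the same shares were 22.7% (10.1 to 43.4), 48.1%, 40.0% (21.9 to 61.3) and 47.4% (27.3 to 68.3). In Lam the intervals of the pairs did not overlap, and in the 3 other surgeries they did, but a difference was not tested. For H3K9ac the intervals of the pairs overlapped in each surgery. In Lam that share was 53.3% (30.1 to 75.2) at Klf4 and Klf9 and 50.0% (29.9 to 70.1) at Klf6 and Klf7. These rest on 10 to 27 ATAC peaks per pair and list, and Klf7, with 16 to 24 of them, sets the value of its pair.

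The rest of the family and the Sp genes, which bind the same boxes, were counted in the same way. Of the 7 other Klf genes, H3K9ac start peaks were called at 4 for Sham (50.1% of coding genes), 4 for SNA (51.4%), 3 for Lam (51.1%) and 4 for DCA (59.9%). Klf12, Klf14 and Klf17 had none for either acetylation mark in any list. Their windows held 0.241 to 0.469 H3K9ac peaks per 10 kb, against 2.03 to 3.15 for the 10 members summed. Both are total peaks over total window length, so long windows weigh most, and lengths were not matched. By gene, H3K9ac peaks numbered 10 to 13 at Klf3, 2 to 8 at Klf12 and 0 at Klf14 and Klf17. Klf1 and Klf3 had an H3K9ac start peak in every list. Among the 9 Sp genes, H3K9ac start peaks were called at 6, 5, 4 and 6, beside the same shares of coding genes. Sp5, Sp8 and Sp9, which act in the embryo, had no acetylation start peak in any list, although 4 to 7 ATAC peaks lay in each of their windows. H3K27me3 start peaks were called at 6, 3, 5 and 1 of the Sp genes in Sham, SNA, Lam and DCA, against 1, 0, 1 and 0 of the 10 members. Over all coding genes the shares were 22.2%, 16.9%, 25.1% and 8.46%.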

How the data were processed

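The deposited files are 16 peak lists on mm10, the build named in the submitters' processing notes; the aligner and peak caller are not given in the sources used here. Each was made by the authors from all replicates of an assay and surgery together, per the labels and the series text. The deposited values per peak are a fold enrichment ratio, a −log10 p, a −log10 q and a score, all as the authors gave them; the score was not used. Peak starts were made 1-based, and ATAC lines repeating an interval with several summits were counted once. Genes and starts came from RefSeq tables (GRCm38.p6), which held 7 of the 10 promoters. A peak belonged to a window (gene body and 10 kb on either side) if it overlapped it by at least 1 bp. Counts, shares with Wilson intervals, start peaks within 1 kb, merged regions and overlaps were computed in Python 3.11.15 with pandas 2.3.3, numpy 2.4.6, scipy 1.17.1 and statsmodels 0.14.6, and figures drawn with matplotlib 3.10.9. The counting of peaks in windows and of overlaps was tested on simulated data.

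With 1 list per condition no comparison was tested. Depth per sample is unknown, since the lists hold no read counts. All 10 members are named, with the peak of highest −log10 p at each start and, per assay and pattern, the 3 regions of highest −log10 p found in both axotomy lists alone or both control lists alone. The members and gene lists were chosen with earlier results of these data known. Alternatives changed the peak threshold, list length, window, start distance and overlap, and 3 more were chosen after seeing the data.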

Additional observations from a re-analysis of the deposited data

How the results depend on the processing

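No paired analysis was possible because each list pools all replicates of a condition. Of the alternative values for the main results, 280 stayed within the set limits, 74 moved and 2 reversed. Of those for single genes, 548 stayed, 48 moved and 1 reversed. The number reversed is not the number of shares that crossed 50%, since some counted as moved crossed it too. Among these, for all 10 genes in DCA against Lam, were H3K27ac at equal list length (46.4% to 54.7%) and ATAC with a −log10 q of at least 5 (43.1% to 56.5%). Cutting the lists of an assay to the length of the shortest reversed the share of all 10 genes for H3K9ac in DCA against Lam (43.8%) and for H3K27ac in Lam against Sham (49.7%). It moved the SNA share to 53.8% for H3K9ac and 51.5% for H3K27ac and the H3K27ac DCA share to 54.7%. For Klf6 and Klf7 it gave 37.5% (H3K9ac, DCA), 56.0% (H3K27ac, SNA), 60.9% (H3K27ac, DCA), 45.0% (H3K27ac, Lam against Sham) and 0.0% (H3K27me3, SNA). It left 3 H3K9ac regions in the axotomy lists alone, 4 H3K9ac and 4 H3K27ac regions in the control lists alone, and 0 H3K27me3 start peaks in Sham and Lam.

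With a −log10 q of at least 5, all 10 genes gave H3K9ac shares of 79.2% (SNA), 81.8% (DCA) and 76.2% (Lam against Sham), an H3K27ac share of 51.0% (SNA) and an ATAC share of 56.5% (DCA). Only 2137 Sham but 42723 DCA peaks of H3K9ac reach that limit. Klf6 and Klf7 gave 79.3% (H3K9ac, DCA), 55.6% (H3K27ac, SNA), 81.8% (ATAC, SNA) and 71.4% (ATAC, Lam against Sham), and Klf4 and Klf9 gave 73.3% (H3K9ac, DCA) and 80.0% (H3K9ac, Lam against Sham). The Klf15 H3K27ac share in SNA reversed to 45.5%, from 5 SNA and 6 Sham peaks. H3K9ac start peaks were left at 3 members in Sham, 3 in SNA and 5 in Lam, and H3K27me3 ones at 0 in Sham and Lam. Regions in the axotomy lists alone were 7 for H3K9ac and 1 for ATAC, and in the control lists alone 0 for both. ATAC peaks overlapped H3K9ac in 18.2% of cases in Sham and 26.7% in SNA, H3K27ac in 68.2% in Sham and 75.0% in Lam, and H3K27me3 in 0.0% in Sham and Lam. With a q of at most 0.05 the H3K9ac shares were 70.1% (SNA) and 60.3% (Lam against Sham) for all 10 genes and 77.2% and 71.1% for Klf6 and Klf7, and H3K27me3 start peaks were 0 in Sham and Lam.

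Where the mark had to cover at least 50% of the ATAC peak, the overlap was 25.9% (Sham), 38.4% (SNA), 19.5% (Lam) and 59.1% (DCA) for H3K9ac, 23.5%, 27.9%, 35.6% and 30.3% for H3K27ac, and 1.15% for H3K27me3 in Lam. Start peaks that overlap the start base numbered 1 (Sham), 2 (SNA) and 1 (Lam) for H3K9ac, 3, 2, 4 and 2 for H3K27ac in Sham, SNA, Lam and DCA, and 0 for H3K27me3 in Sham and Lam. Within 5 kb of the start H3K27me3 peaks were found at 3 members in Sham, 1 in SNA and 2 in Lam. A window of 5 kb gave H3K27me3 shares of 0.0% (all 10 genes, DCA) and, for Klf6 and Klf7, 100.0% in both SNA and Lam against Sham. At 10 kb that pair held only 1, 2, 1 and 0 H3K27me3 peaks in Sham, SNA, Lam and DCA, none with a q of at most 0.05. All H3K27me3 shares of the pair rest on such counts, so their values of 0.0% and 100.0% show no shift. Of the alternatives chosen after seeing the data, covered length gave H3K9ac DCA shares of 69.5% (all 10 genes) and 62.0% (Klf6 and Klf7), leaving out Klf7 gave H3K27me3 shares of 0.0% in both SNA and Lam against Sham for the pair, and the outer end of the gene record gave 0 H3K27me3 start peaks in Sham. Beyond the fewer peaks that a stricter limit leaves, the cause was not tested.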
